A study of Pinus pinaster with 18 samples.

Results

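The transcripts described here are 150 of the 287424 in a table of maritime pine (Pinus pinaster) embryos. They were more abundant in early cotyledonary than in precotyledonary zygotic embryos and kept a near-constant level through the somatic stages. They were chosen by measured values. Counts were scaled to the column total (plain CPM, the usual unit for a count relative to its library) and averaged over the 3 libraries of a stage. A member had a mean of at least 10 CPM at the early cotyledonary stage, had every library of that stage above every precotyledonary library, and had somatic means whose highest over lowest, with 1 CPM added to each, was at most 1.5. Of the 929 transcripts that met these limits, the 150 with the highest early cotyledonary over precotyledonary mean, again with 1 CPM added, were taken. The differences between these stages, and the steadiness of the somatic means, are therefore properties of the choice and are given as a description with no test.

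The study compared embryos formed in culture with embryos formed in seeds, in 18 libraries, 3 per stage. Somatic embryos of the single embryogenic line PN519 were matured in the dark at 24 °C, on Phytagel at 9 g/L with sucrose at 68 g/L and abscisic acid at 80 µM as the sole growth regulator. They were collected as translucent embryos at 4 to 6 weeks (ES1), opaque precotyledonary embryos at 6 to 10 weeks (ES2) and cotyledonary embryos at 12 to 14 weeks (ES3). Zygotic embryos were excised from seeds of 1 orchard in 2015, as precotyledonary embryos in early to mid July (PC), early cotyledonary embryos in mid to late July (EC) and immature cotyledonary embryos from early August to early September (C). Embryo type went together with genotype, culture and harvest, and these cannot be told apart. The methods speak of 3 technical replicas of 3 biological samples, so the spread between libraries may be partly technical. In whole embryos, fewer cells of a type and less RNA per cell cannot be told apart.

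Cotyledons arise from the flanks of the embryo apex, and in conifers a ring of several forms around the shoot meristem. Their outgrowth follows local auxin flow and cell wall loosening, while receptor kinases and transcription factors mark the boundary between meristem and organ. Somatic embryos pass through similar forms under abscisic acid and high osmotic strength, without the maternal megagametophyte that surrounds the zygotic embryo in the seed.

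The 15 libraries of ES1 to EC held 22725467 to 43510184 counts each, and the 3 C libraries 74949347 to 89590401. The C libraries stood apart: 137783 transcripts had counts in C alone and took 29.1 to 29.4% of the C counts. This share lowers the plain CPM in C of every other transcript. Trimmed mean of M-values (TMM) factors equalise the bulk of transcripts and were computed on those kept for testing, without the C-only counts. They were 0.422 to 0.428 in C and 0.824 to 1.44 elsewhere. What lowers plain CPM in C beyond the C-only share was not tested. The median level of the 23118 transcripts kept for testing was 2.18 to 2.25 plain CPM in the C libraries and 6.79 to 11.2 in the others, against 7.33 to 8.90 TMM-scaled CPM in all 18. Levels below are plain CPM unless the TMM scale is named, and an order between C and another stage in plain CPM alone is not read as a difference. Seed storage protein transcripts, 7 by name, had counts in every stage but for 1 of them with none in C. On the TMM scale they summed to 85.9 to 107 CPM in PC and EC libraries, 151.7 to 435 in somatic and 274 to 339 in C libraries, where the plain sum was 82.2 to 101.

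The mean of EC over that of PC ran from 1.70 to 5.68 among members, with a median of 2.06, and 16 members were above 3. At the edge of the choice, the ratio with 1 CPM added was 1.698 for ppt_74242 and 1.697 for ppt_241522, the last 2 inside, and 1.695 for ppt_221814 and 1.690 for ppt_157692, the first 2 outside. Most members were of modest abundance in EC: 79 had means below 20 CPM, 55 lay between 20 and 100, and 16 reached 100 or more. The median member stood at 8.81 CPM in PC, 17.1 in EC, 6.40 in C and 11.4, 13.4 and 12.5 in ES1, ES2 and ES3. Steadiness depended on the scale: on TMM-scaled CPM, 54 members had somatic means whose ratio passed 1.5. With the whole choice made on TMM-scaled CPM, 62 of the 150 remained among 834 that met the limits. Of the 88 lost, 40 fell below 10 CPM in EC and 54 passed the somatic ratio, 7 of them both, and 1 was not kept for testing.

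Within a stage, the highest library of each member was set over its lowest, with 1 CPM added. The median ratio was 1.24 in ES1, 1.27 in ES2 and 1.36 in ES3, against 1.27, 1.31 and 1.46 over the kept transcripts. In PC, EC and C it was 1.36, 1.41 and 1.34, against 1.28, 1.29 and 1.18. The ratio passed 1.5 in 18 members in ES1, 33 in ES2 and 52 to 61 in each other stage. Some zygotic values were carried by single libraries. The count of ppt_40412, the member with the highest ratio, was 1, 0 and 250 in the PC libraries, 431, 552 and 457 in EC and 38, 0 and 0 in C, and at most 16 in a somatic library. Likewise ppt_250427 stood at 1.80, 0.865 and 24.7 CPM in PC, 46.4, 28.2 and 27.4 in EC, and 163, 0 and 40.5 in C, while its somatic libraries held 0 to 1.42. It was called lower in ES3 than in C, by 8.78 on the log2 scale (SE 1.93, edgeR adjusted p = 0.000839), and by 7.07 without C replicate 1, its highest C library.

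Steady somatic level meant very different levels. In 21 members all 9 somatic libraries lay above every EC library (14.1% of those tested, against 16.1% of the kept transcripts). In 45 all 9 lay below every PC library (30.2% against 33.3%). In the other 84 the somatic libraries overlapped the PC to EC range, and in 0 members did all 9 fall in the gap between PC and EC. The shares of the outer classes were near those of the kept transcripts. By contrast 36 members had all 3 somatic means under 1 CPM, 35 of them among those tested (23.5% against 3.17%). The added 1 CPM lets any such transcript meet the steadiness limit almost regardless of its ratio, so this share follows in part from the choice.

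**Figure D1:**
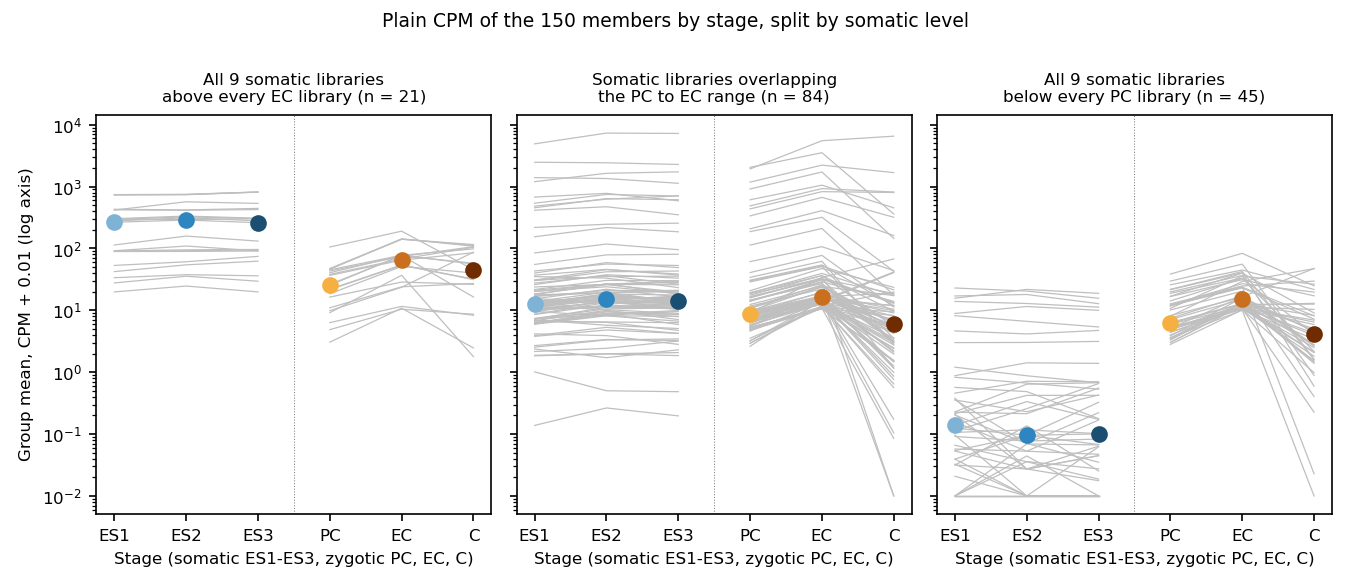
Mean plain CPM plus 0.01 (log axis) at the 3 somatic and 3 zygotic stages for the 21, 84 and 45 members of each class, with a grey line per member and a coloured point for the class median. The PC to EC increase was fixed by the choice, and so was the somatic steadiness with 1 CPM added. Somatic lines near 0 need not be flat on this axis. The somatic medians run from 0.0857 to 0.128 CPM in the right panel to 261 to 288 CPM in the left.

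Protein names came from the study's supplementary tables, which list 33 members, 12 of them with an informative name. All are matches to proteins of other species. The most abundant named group was a run of 6 transcripts with neighbouring identifiers (ppt_168568, ppt_168569, ppt_168571, ppt_168572, ppt_168573 and ppt_168574), all matched to a putative jasmonate O-methyltransferase of rice, an enzyme family that converts jasmonic acid into its volatile methyl ester. In ppt_168573 the PC libraries stood at 47.2, 52.6 and 38.7 CPM, EC at 141, 120 and 169, and C at 141, 87.7 and 97.7. The somatic libraries were far higher, at 713, 752 and 763 CPM in ES1, 692, 770 and 790 in ES2, and 958, 756 and 746 in ES3. The stage means of the 6 spanned 18.5 to 47.4 CPM in PC, 51.3 to 143 in EC, 40.1 to 116 in C and 292 to 820 in the somatic stages. Since neighbouring identifiers may be forms of 1 gene that share reads, the 6 are not counted as 6 independent genes.

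C libraries took no part in the choice, and ES3 did so only through the steadiness of the somatic means. The comparison of ES3 with C, the latest stage of each embryo type, was therefore tested across all kept transcripts with edgeR's quasi-likelihood F-test with TMM factors. A transcript was called where the log2 fold change passed 1 in size and the p adjusted by Benjamini-Hochberg was below 0.05. All 6 transcripts matched to the putative jasmonate O-methyltransferase were higher in ES3, with log2 fold changes of 1.18 to 1.33. Their standard errors were 0.179 to 0.278 and their edgeR adjusted p-values 1.23e-05 to 0.000654. For ppt_168573 the TMM-scaled CPM was 878 ± 118 in ES3 and 362 ± 91.3 in C (SD, n = 3 each). The groups did not overlap on either scale.

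The peroxidase ppt_143809, of a family that oxidises phenolics and cross-links wall polymers with hydrogen peroxide, had the second highest PC to EC ratio. Its PC libraries stood at 5.61, 8.11 and 13.8 CPM, EC at 42.1, 25.9 and 42.7, and C at 2.51, 1.38 and 1.43. Somatic libraries held 65.6 to 131 CPM, above every zygotic library. ES3 exceeded C by 4.09 on the log2 scale (SE 0.390, edgeR adjusted p = 2.27e-07), 101 ± 45.9 against 5.90 ± 2.06 TMM-scaled CPM. Transcripts counted in C alone within 5 identifiers of it summed to 30.8 CPM, against 1.77 CPM of its own in C. In an alternative chosen after the data were seen, counts of each C-only transcript were added to the kept transcript nearest to it, which need not be this one. The value rose to 4.63, so it does not show the effect of adding those 30.8 CPM here. Of the other 25 tested transcripts named peroxidase, 3 were higher and 0 lower in EC than in PC, and 16 were higher and 0 lower in ES3 than in C.

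F16A14.4 (ppt_86930, named after an Arabidopsis protein) completed the named members with somatic libraries above EC. It stood at 5.92, 8.29 and 4.75 CPM in PC, 15.4, 9.95 and 9.39 in EC, 6.07, 8.37 and 10.5 in C and 23.0 to 39.8 in the somatic libraries. ES3 and C were not called different, with a log2 fold change of 0.21 (SE 0.259, edgeR adjusted p = 0.498) and 32.1 ± 7.89 against 27.8 ± 7.51 TMM-scaled CPM. With library sizes alone the value was 1.33 and with deposited totals 1.83, both called.

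SPL3 (ppt_239799), a SQUAMOSA promoter-binding transcription factor of the family that times phase changes in plants, was at similar levels in EC and ES2 and higher in ES1 than in PC. It stood at 21.1, 20.4 and 16.4 CPM in PC, 44.5, 36.8 and 27.8 in EC and 6.72, 5.97 and 3.62 in C. The somatic libraries held 30.1 to 42.9 CPM in ES1, 26.5 to 38.1 in ES2 and 18.6 to 26.7 in ES3. Against C, ES3 was not called different, with a log2 fold change of 0.45 (SE 0.231, edgeR adjusted p = 0.0991) and 24.7 ± 1.94 against 18.1 ± 5.37 TMM-scaled CPM. It was called higher in ES3 with library sizes alone (1.60, edgeR adjusted p = 1.59e-05) and with deposited totals (2.10). C-only transcripts within 5 identifiers summed to 32.9 CPM, against 5.44 CPM for SPL3 in C, and with such counts added the value turned to -1.80 (edgeR adjusted p = 4.37e-07). The other 3 tested transcripts named SPL, with consecutive identifiers that may be forms of 1 gene, were also higher in EC than in PC, by 2.15 to 2.75 on the log2 scale, all called by edgeR, where 5.83% of the kept transcripts were called higher and 2.25% lower.

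The receptor protein kinase CLAVATA1 transcript (ppt_283077) matches a receptor that in Arabidopsis limits the stem cell pool of the shoot meristem. It stood at 17.7, 18.3 and 14.7 CPM in PC and 45.1, 36.8 and 38.0 in EC. All 9 somatic libraries were lower, at 3.88 to 9.37 CPM. In C it stood at 8.62, 9.78 and 8.77 plain CPM, and at 30.2 ± 2.39 on the TMM scale, where EC was 30.3 ± 4.04. ES3 lay below C by the test, at 5.69 ± 0.927 TMM-scaled CPM, with a log2 fold change of -2.41 (SE 0.179, edgeR adjusted p = 1.68e-08). Scaled to deposited totals the value was -0.75 and the call was lost. Of 4 other tested transcripts of this name 0 were called between EC and PC, and all 4 were higher in ES3 than in C.

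The xyloglucan endotransglucosylase/hydrolase ppt_137905 belongs to enzymes that cut and rejoin the xyloglucan tethers of the growing cell wall. It stood at 15.8, 20.5 and 28.5 CPM in PC, 36.6, 48.2 and 36.4 in EC and 0.270, 0.156 and 1.33 in C. Somatic libraries held 1.30 to 6.92 CPM, below every PC library. The C libraries stood at 0.891, 0.526 and 4.44 on the TMM scale, and ES1 and ES2 libraries, at 3.19 to 4.34, all lay below the last of these. ES3 and C were not called different, with a log2 fold change of 1.34 (SE 0.587, edgeR adjusted p = 0.0561). It was called without C replicate 3, the highest C library (2.78, edgeR adjusted p = 0.00028), and without ES3 replicate C, the lowest ES3 library (1.73, edgeR adjusted p = 0.011). It was also called with library sizes alone (2.53), with deposited totals (3.03) and with a replicate block (1.45). C-only transcripts within 5 identifiers summed to 14.3 CPM, against 0.587 CPM of its own in C. With C-only counts added to the nearest kept transcript, which need not be this one, the value rose to 1.87 and was called. It does not show the effect of those 14.3 CPM. Of 16 other tested transcripts of this enzyme, 0 were called in either direction between EC and PC, and 15 were higher and 0 lower in ES3 than in C.

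The WAT1-related transcript ppt_217559 matches a family with a vacuolar auxin transporter in Arabidopsis, and was counted in zygotic embryos only. It stood at 14.4, 14.0 and 14.3 CPM in PC, 34.9, 23.9 and 39.6 in EC and 3.30, 5.02 and 3.95 in C, and had 0 counts in all 9 somatic libraries. A floor of 3 counts over the ES3 libraries put the mean of C at least 497-fold higher, at 13.7 TMM-scaled CPM (edgeR adjusted p = 3.54e-08).

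**Figure D2:**
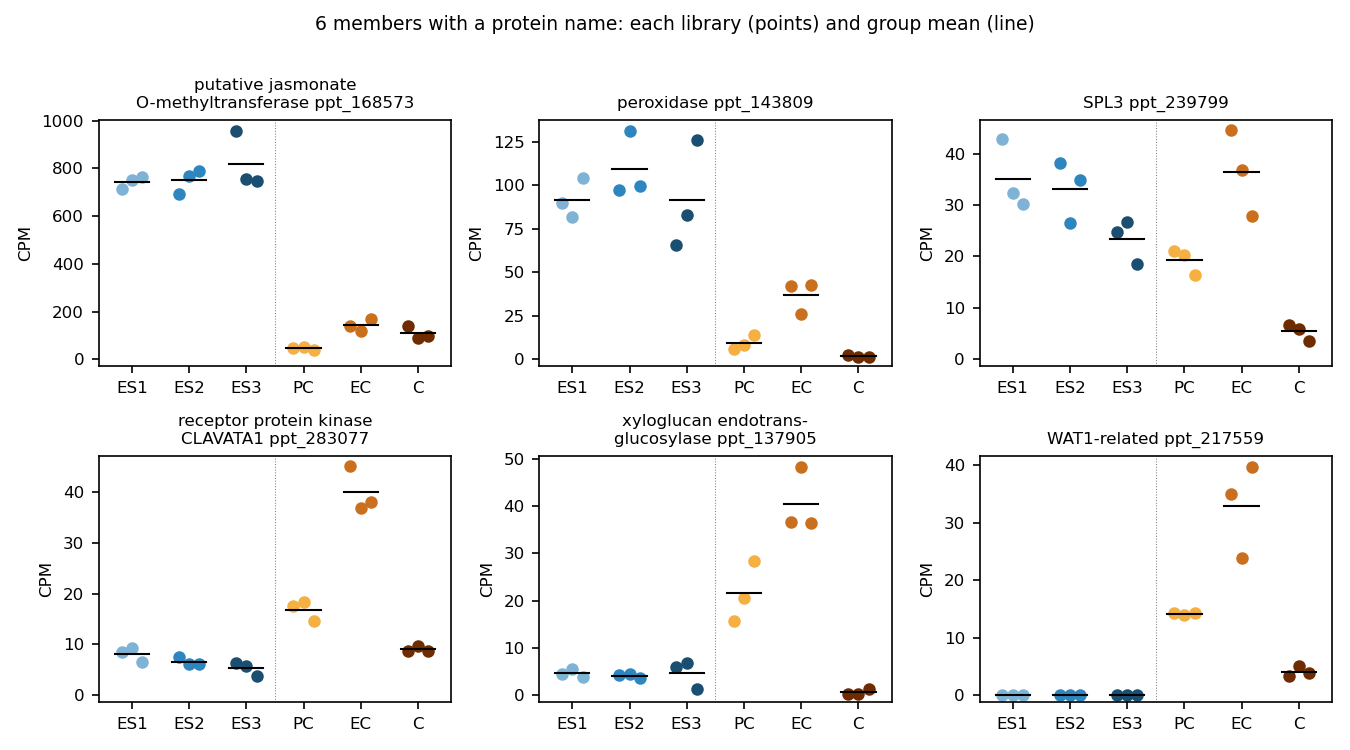
Plain CPM of 6 members with a protein name in each of the 18 libraries (points, 3 per stage) and the stage mean (line). The putative jasmonate O-methyltransferase and the peroxidase are highest in the somatic stages, and SPL3 is at similar levels in EC and ES2. The CLAVATA1, xyloglucan enzyme and WAT1-related transcripts are highest in EC on this scale, the last with 0 in every somatic library.

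Other named transcripts of the same functional groups were compared between EC and PC, where 5.83% of the kept transcripts were higher in EC and 2.25% lower. The groups are keyword lists over names in the supplementary tables, which the study built from these samples, so their directions are not independent evidence. Leaving members out, edgeR called 3 of 55 hormone transcripts higher in EC and 5 lower. The counts were 7 and 5 of 86 for cell wall, 13 and 7 of 140 for transcription factors, 4 and 0 of 123 for receptors and kinases, 4 and 14 of 148 for stress and defence, and 0 and 1 of 35 for phenylpropanoids. Terpenoid synthesis (10 higher and 0 lower of 38) and transport (13 and 1 of 86) held the largest shares of higher transcripts among the 12 lists, at 26.3% and 15.1%. No member matched either by keyword, although the WAT1-related member carries transporter annotation. LEA and storage proteins (11 and 7 of 79), cell cycle and replication (2 and 0 of 123), photosynthesis and plastid (2 and 0 of 27) and cytochrome P450 (1 and 8 of 35) held no named member. The same fit gave ES3 against C, where 29.9% of the kept transcripts were higher in ES3 and 15.1% lower. In the lists that hold members, these included, the counts higher and lower in ES3 were 49 and 6 of 61 for hormones, 58 and 3 of 87 for cell wall, 80 and 17 of 141 for transcription factors, 60 and 12 of 124 for receptors and kinases, 124 and 2 for stress and defence, and 34 and 5 of 41 for phenylpropanoids. The 6 methyltransferase transcripts count in both the hormone and the phenylpropanoid list. In the lists without members 39.5 to 57.1% were higher and 2.33 to 28.6% lower, except photosynthesis and plastid, at 18.5% and 14.8%.

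Most abundant members carried no name. The highest, ppt_135352, stood at 1916, 1850 and 2029 CPM in PC, 5980, 4416 and 6161 in EC, and 7471, 5867 and 6269 in C. Its somatic libraries held 4141 to 5509 CPM in ES1, 7044 to 7854 in ES2 and 6536 to 8517 in ES3, so that all ES2 and ES3 libraries lay above every EC library. It was also the member with the highest mean in C. ES3 was lower than C by the test, with a log2 fold change of -1.47 (SE 0.195, edgeR adjusted p = 7.12e-06), but the value was -0.35 with library sizes alone and 0.15 with the deposited totals, neither of them called. With C-only counts added to the nearest kept transcripts it was -0.93 and not called, although its own C-only neighbours summed to 0.163 CPM.

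A second abundant pair, ppt_74246 and its neighbour ppt_74242, was lower in C than in EC on both scales. The former stood at 2025, 1900 and 2216 CPM in PC, 3776, 3098 and 3718 in EC, 1651 to 3006 in the somatic libraries and 438, 333 and 310 in C, and its TMM-scaled CPM was 2678 ± 347 in EC and 1200 ± 217 in C. ES3 exceeded C by 1.01 on the log2 scale (SE 0.192, edgeR adjusted p = 0.00024), close to the limit of 1: without ES3 replicate A, C replicate 2 or C replicate 3 it was 0.88, 0.95 and 0.90 and was not called. For ppt_74242 the value was 0.92 and not called, and without ES3 replicate C it was 1.03 and called. The transcript ppt_117576 went from 1018, 746 and 985 CPM in PC to 2148, 1432 and 1585 in EC and 177, 124 and 136 in C. It varied among somatic libraries, from 462 to 1825 CPM, and was higher in ES3 than in C by 1.28 (SE 0.403, edgeR adjusted p = 0.0108), a call lost without ES3 replicate A (1.01, edgeR adjusted p = 0.053).

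Of the other members among the 10 most abundant in EC, ppt_141398 (EC 2249, 2051 and 2371 CPM) was lower in ES3 than in C by the test, with a log2 fold change of -1.57, and its sign turned with the deposited totals (0.04). The neighbours ppt_218379 and ppt_218382 moved together, at 417 to 489 CPM in the PC libraries, 680 to 1134 in EC and 588 to 924 in C. Their log2 fold changes of -1.81 and -1.99 were called, and with library sizes alone they were -0.71 and -0.89 and were not. ppt_234445, at 542 to 697 CPM in PC and 926 to 1293 in EC, had a value of -0.99 and was called without C replicate 2 (-1.02) or ES3 replicate C (-1.09). Its sign turned with library sizes alone (0.14) and with deposited totals (0.64). ppt_214048 and ppt_214049, at -0.53 and -0.77, were not called, and their signs turned with library sizes alone (0.61 and 0.38) and with deposited totals (1.11, called, and 0.88).

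Members without a name included a second run above EC in the somatic stages. Its 6 transcripts, ppt_241515 to ppt_241525, belong to the module the study calls black. Their stage means were 4.87 to 45.1 CPM in PC, 10.4 to 77.7 in EC, 8.63 to 107 in C and 33.7 to 334 in the somatic stages. For ppt_241522 the libraries stood at 42.7, 36.0 and 51.0 CPM in PC, 79.8, 69.9 and 72.5 in EC, 102, 116 and 103 in C and 270 to 352 in the somatic stages. On the TMM scale C stood at 336, 390 and 344, beside 299 to 379 in ES3. None of the 6 was called between ES3 and C, with log2 fold changes of -0.21 to 0.45. At ppt_241522 the value of -0.12 became 1.01 with library sizes alone and 1.51 with the deposited totals, both called. In all, 78 members lay in 29 such runs, within 5 identifiers of another member, and 72 stood alone. Among transcripts with a name, 444 of 583 pairs with consecutive identifiers shared it (76.2%), so the number of distinct genes may be below 150. A shared name does not show that 2 transcripts come from 1 gene.

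The 36 members nearly without somatic counts had median levels of 5.10 CPM in PC, 13.0 in EC and 4.40 in C, and differed among themselves in C. In ppt_71439 the PC libraries stood at 4.75, 4.47 and 6.12 CPM, EC at 21.0, 15.97 and 12.8, and C at 54.7, 50.6 and 36.8, with 0 counts in all 9 somatic libraries. Its mean in C, 158 ± 31.0 TMM-scaled CPM, was at least 5750-fold above the floor of ES3. The bounds that follow are likewise for the mean of C, not for each library. ppt_241655 had the same order of stages, with 9.21, 7.17 and 7.62 CPM in PC, 36.0, 22.2 and 29.7 in EC, 50.5, 39.2 and 51.9 in C and at most 0.621 in a somatic library. It was called lower in ES3, at 0.425 ± 0.222 against 157 ± 22.1 TMM-scaled CPM (edgeR adjusted p = 1.20e-10). ppt_163160, also at 0 in every somatic library, stood at 29.3, 14.0 and 22.0 CPM in C and 39.1, 56.9 and 38.6 in EC. On the TMM scale the order turned, with 47.1 to 96.6 in C and 29.4 to 41.9 in EC, and C was at least 2630-fold above the floor. ppt_12716 stood at 12.2, 13.9 and 10.0 CPM in EC and 11.5, 6.50 and 21.0 in C, which was 43.2 ± 24.5 on the TMM scale and at least 1570-fold above it. ppt_109372 stood at 13.5, 23.9 and 10.3 CPM in EC and 3.95, 3.04 and 0.961 in C, or 8.82 ± 5.06 TMM-scaled CPM, at least 321-fold above it. ppt_107052 stood at 31.4, 22.3 and 17.3 CPM in EC and 10.6, 5.75 and 8.05 in C, or 27.1 ± 7.86 TMM-scaled CPM, at least 985-fold above it. In ppt_109707 the C libraries disagreed, at 0.0257, 13.3 and 24.4 CPM. Its mean in C, 42.1 ± 40.7 TMM-scaled CPM, was at least 1530-fold above the floor, but C replicate 1 stood at 0.0849. ppt_150788 and ppt_150794 held 8.49 to 18.5 CPM in EC and 0.0400 to 2.53 in C. Both were called lower in ES3 than in C, by 2.82 and 3.12 on the log2 scale (edgeR adjusted p = 0.000245 and 0.00347), and the call of ppt_150794 was lost with the deposited totals (-1.47).

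Other members ran the opposite way. ppt_40691 had 0 counts in every C library, 26.5, 22.0 and 14.4 CPM in the ES3 libraries, 11.6 to 16.5 in PC and 23.9 to 36.2 in EC. ES3 was at least 536-fold above the floor of C, and its neighbour ppt_40692 at least 316-fold. ppt_109226, at 10.7 to 12.7 CPM in PC and 20.2 to 28.1 in EC, had 1.96 to 3.73 CPM in the ES3 libraries and at most 0.0386 in a C library, and was called higher in ES3 (edgeR adjusted p = 7.53e-08). ppt_200124 stood at 4.88, 8.51 and 5.41 CPM in PC, 20.5, 10.5 and 11.2 in EC, 3.73 to 4.55 in ES3 and 0.0534 to 0.129 in C. It was higher in ES3 than in C by 3.84 on the log2 scale (SE 0.375, edgeR adjusted p = 2.94e-07). C-only transcripts within 5 identifiers summed to 24.6 CPM. With C-only counts added to the nearest kept transcript, which need not be this one, the value rose to 4.37. It does not show the effect of those 24.6 CPM.

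Of the other members with the highest PC to EC ratios, ppt_215826 was higher in C than in PC on both scales. It stood at 2.91, 2.81 and 3.09 CPM in PC, 17.9, 7.36 and 10.3 in EC, and 23.1, 17.04 and 19.1 in C, with 5.46 to 9.96 in the somatic libraries, so that its EC libraries overlapped the somatic ones. On the TMM scale C was 65.7 ± 9.57 and PC 2.08 ± 0.0883. ES3 was called lower than C, with a log2 fold change of -2.91 (SE 0.295, edgeR adjusted p = 4.30e-07). ppt_119446, in a run of 4 neighbours, stood at 0.321, 0.413 and 1.83 CPM in C (1.06, 1.39 and 6.08 on the TMM scale), after 2.67, 2.45 and 4.44 in PC and 11.2, 16.7 and 14.3 in EC. Its somatic libraries held 0.855 to 4.39 CPM, and ES3 and C were not called different, with a log2 fold change of 0.23 (SE 0.678, edgeR adjusted p = 0.786). With deposited totals it was 1.91 and called.

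Over the members tested, all but ppt_40412, 63 were lower in ES3 than in C (42.3%, against 15.1% of the kept transcripts) and 33 were higher (22.1%, against 29.9%). The remaining 53 were not called. Their median log2 fold change was -0.64, and that of all kept transcripts was 0.19. Lower calls outnumbered higher ones by less among the 62 members that remained on TMM-scaled CPM, with 23 lower and 18 higher. Their share of lower calls was still above the 15.1% of the kept transcripts, and 16 of the 62 had somatic means under 1 CPM. The counts by class are a description, since ES3 is among the somatic libraries that define the classes. Of the 35 tested members under 1 CPM in every somatic stage, 33 were lower and 0 higher. The exceptions were ppt_110701, with 0 counts in C, and ppt_90369, at 0.722 and 0.717 TMM-scaled CPM. For these 2, C-only transcripts within 5 identifiers summed to 69.15 and 13.3 CPM, against 0 and 0.216 of their own in C. The 35 members were near 0 in ES3 by their class, so a call could go almost only 1 way. Of all kept transcripts of this kind, 81.3% were lower and 6.96% higher. Of the other 114, 30 were lower (26.3%) and 33 higher (28.9%), with a median of -0.09. Of the 21 members with somatic libraries above EC, 10 were higher and 1 lower, with a median of 0.45, where 56.9% of all kept transcripts of this class were higher and 7.54% lower. The methyltransferase run gave 6 of the 10, and the neighbours ppt_74269 and ppt_74272 another 2. The exception was ppt_163690, at 79.8 ± 3.53 against 290 ± 31.9 TMM-scaled CPM. Of the 83 tested overlapping members, 19 were higher and 25 lower, with a median of -0.50. Of the 45 below PC, 4 were higher and 37 lower, and their median was -7.22, where 22.5% of all kept transcripts of this class were higher and 20.5% lower. The members of this class include the 35 near 0.

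**Figure D3:**
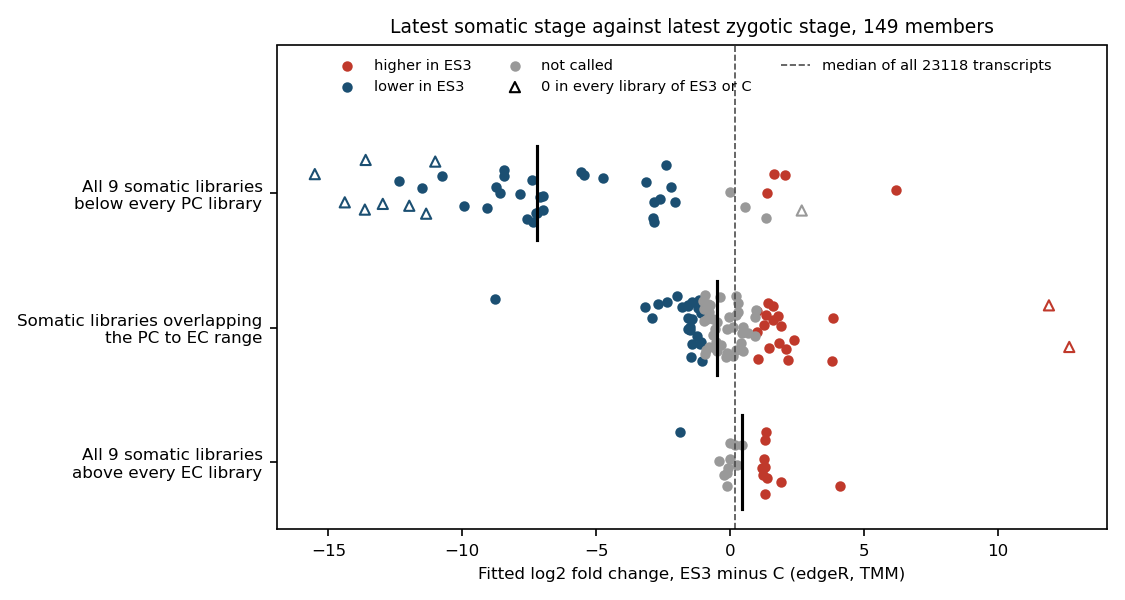
Fitted log2 fold change of ES3 against C for the members tested, by class, with class medians (black bars) and the median of all 23118 kept transcripts (dashed line, 0.19). Open triangles are members with 0 counts in every library of ES3 or C, whose fitted value is no measure of size; the class below PC lies mostly to the left and the class above EC mostly to the right of the dashed line.

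These counts depended on the scaling. Scaled to deposited totals, the median of all kept transcripts moved from 0.19 to 1.84 and that of the members from -0.64 to 1.01, and 72 members were higher and 35 lower. With library sizes of the kept transcripts the medians were 1.34 and 0.51, with 58 members higher and 40 lower. Each rescaling shifts all transcripts nearly alike, so higher calls are bound to gain and lower calls to drop.

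Whether the level in C stayed up or fell back after EC likewise turned on the scale. In plain CPM all 3 C libraries lay below every EC library in 113 of the tested members (82.9% of the kept transcripts did), below every PC library in 75 (79.8%), above every PC library in 33 (8.91%) and above every EC library in 9 (5.89%). In TMM-scaled CPM the counts were 38 below every EC library (39.1%), 18 below every PC library (40.6%), 100 above every PC library (37.4%) and 61 above every EC library (34.8%). PC and EC chose the members, so these counts carry no test. The median member stood at 19.9 to 22.1 TMM-scaled CPM in the C libraries, above EC (13.2 to 16.4) and PC (6.24 to 6.42), while in plain CPM C was the lowest stage. By class, C lay above every EC library on the TMM scale in 17 of the 21 members with high somatic levels, 32 of the 83 overlapping ones and 12 of the 45 low ones. In plain CPM these counts were 5, 2 and 2. C-only neighbours within 5 identifiers were present for 137 of the 150 members (91.3%, against 94.3% of the kept transcripts), and in 55 members they summed to more than the member's own C level. Their part in the C levels was tested only by adding the counts of each to its nearest kept transcript, which need not be the member. That left 63 members lower and 37 higher in ES3, with a median of -0.51, and does not show the effect of all neighbours.

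**Figure D4:**
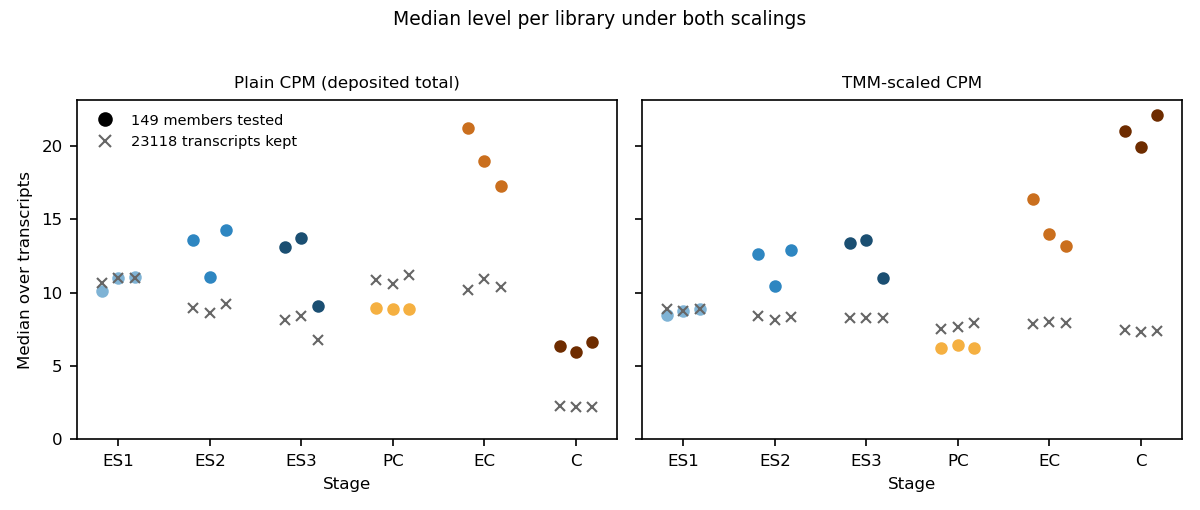
Median level of the tested members (filled points) and of all 23118 kept transcripts (crosses) in each of the 18 libraries, in plain CPM (left) and TMM-scaled CPM (right). The members' medians in C are 5.92 to 6.64 on the left, the lowest of the 6 stages, and 19.9 to 22.1 on the right, the highest.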

How the data were processed

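RNA-seq of 18 libraries was analysed. The file deposited by the authors gives raw read counts for each transcript. The authors cleaned reads with SeqTrimBB, assembled them with Trinity 2.11, CD-HIT-EST and Mira, used BWA MEM to map them on the transcriptome of the species, and counted with sam2counts. The submitters' processing notes name BWA and bcl2fastq, with versions not given in the sources used here, and how reads with several matches were counted is not stated. All columns were matched to samples, and 0 were left unused. The kit is not stated to keep strand, so antisense transcripts cannot be told apart. No sequence of a member is printed here, and no genome was used.

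The study's filter, over 2 CPM in 6 or more libraries, left 23118 transcripts. edgeR 4.0.16 (limma 3.58.1, R 4.3.3) fitted all 18 libraries in 6 groups with TMM factors and the quasi-likelihood F-test. P-values were adjusted by Benjamini-Hochberg over all kept transcripts, and calls needed a log2 fold change beyond 1 at an adjusted p under 0.05. The script was tested on simulated data. The member ppt_40412 was not kept and not tested, and 145 members would be kept without the ES3 and C libraries. Counts of 0 were given a floor of 3 counts over the group, on TMM-scaled library sizes, which covers counting error only. Each fold given as a bound is the mean of the other group over this floor, so single libraries can lie below it. Figures were drawn with matplotlib 3.10.9 in Python 3.11.15.

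The members and the lists were chosen with earlier results of these data known. Named transcripts are the members with an informative protein name, the 10 with the highest ratio of EC over PC, the 5 highest and 5 lowest in ES3 against C, the 10 most abundant in EC, the one most abundant in C and the last 2 inside and first 2 outside the choice. Others were chosen after their values were seen. Same-numbered libraries of different stages did not deviate together in each case (correlations of -0.36 to 0.36), and ES3 carries letters where C carries numbers. Alternatives were other size factors, filters, thresholds and tools, leaving out each ES3 and C library, and other choices of members.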

Additional observations from a re-analysis of the deposited data

How the results depend on the processing

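For ES3 against C the scaling of the C libraries was the choice that moved most values. With library sizes of the kept transcripts, 40 members were lower and 58 higher, 1129 and 13982 of all kept transcripts were lower and higher, and the members' median was 0.51. With the deposited totals these were 35, 72, 846, 17531 and 1.01. The C libraries' 29% of counts in transcripts seen there alone makes up the gap between the last 2. On these scales signs turned for ppt_241522 (1.01 and 1.51), ppt_214048 (0.61 and 1.11), ppt_214049 (0.38 and 0.88) and ppt_234445 (0.14 and 0.64), and with the deposited totals alone for ppt_135352 (0.15) and ppt_141398 (0.0406). SPL3 (ppt_239799) turned to -1.80 with the counts of C-only neighbours added, an alternative chosen after the data were seen, in which 5528 of all kept transcripts were lower. A filter of 1 count in any library gave 96701 lower transcripts and 1 CPM in 3 libraries 33380, since C-only transcripts then entered. With no fold limit 6157 of all were lower. Beyond a log2 fold of 2, 10 members were higher, and 1290 and 4609 of all were lower and higher. Members chosen on TMM-scaled CPM had a median of -0.12 and the first 100 of -1.08; the cause was not tested.

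Leaving out each ES3 or C library gave 63 to 64 members lower and 31 to 36 higher, 3409 to 3679 and 6728 to 6850 of all transcripts, and a members' median of -0.81 to -0.61. Size factors and the Wald test of DESeq2 1.42.0 and a fit of ES3 and C alone gave 61 to 64 members lower and 31 to 32 higher. A replicate block, of letters within somatic and numbers within zygotic stages, gave 64 members lower and 33 higher, 3515 and 6838 of all and a median of -0.65. It changed 1 named call, that of ppt_137905, and the letters and numbers do not pair the libraries. Of the 150 members, 79 were under 20 CPM in EC, and the lowest of them there, ppt_110701, had 290, 244 and 435 counts. A count of 0 limits detection to the floor only.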
